A study of Homo sapiens with 12 samples.

Results

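The 39 genes described here encode proteins that fold, move and degrade other proteins in the endoplasmic reticulum (ER). They were listed by name as 10 chaperones and co-chaperones, and 6 genes of the lectin cycle and the disulfide isomerases. The others were 10 genes of ER-associated degradation, 6 genes grouped as stress sensors and transcription factors, and 7 genes of protein translocation. WFS1 was placed with the sensors and transcription factors but is neither. All 39 were found among the 23106 gene symbols counted, and all 39 were among the 13000 genes that passed the filter on low counts. They took 1.06 to 1.28% of the counts of a library. RNA was measured in RCC4 cells, an established human line of clear cell renal cell carcinoma (ccRCC) that lacks functional VHL, the protein that marks HIF-1α and HIF-2α for destruction. Cells received siRNA pools at 2 nM in total for 48 h. The 4 groups were control siRNA (2 nM, non-targeting), HIF1A siRNA (1 nM, with 1 nM control siRNA), HIF2A siRNA (1 nM, with 1 nM control siRNA; its target is EPAS1) and HIF1A siRNA with HIF2A siRNA (1 nM each, the double knockdown), with 3 replicates per group and 12 polyA RNA-seq libraries in all. All groups thus share the VHL-deficient background of this cell line and the transfection itself.

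Proteins that enter the secretory pathway are threaded through the Sec61 channel, bound by chaperones such as BiP, and given disulfide bonds and sugars that are inspected by lectins before export. Chains that fail are drawn back to the cytosol and degraded. When unfolded protein accumulates, the sensors IRE1, PERK and ATF6 start the unfolded protein response, which raises transcription of much of this machinery through a promoter sequence known as the ER stress response element. Clear cell carcinoma arises from the secretory and absorptive epithelium of the proximal tubule, and stabilized HIF proteins drive much of its transcription through a short hypoxia response core, so the comparisons ask whether the ER machinery of these cells depends on either HIF.

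The promoters of the genes are shown because the group is known for the ER stress response element and the siRNAs bear on the HIF core. RefSeq promoters (GRCh38.p14) were matched by symbol for 36 of the 39 genes (PDIA3, DERL1 and DERL3 had no entry), and the 250 bases before each start were searched on both strands. The ER stress response element, which is CCAAT and CCACG with any 9 bases between them, stood in 7 of the 36 genes (19.4%), namely CALR, CANX, CRELD2, HSP90B1, HSPA5, PDIA6 and XBP1, against 25 of all 27305 genes in the table (0.0916%). A gene was counted when any of its starts had a match, and 8 of the 36 genes had several starts; by single promoters the shares were 17% of 47 and 0.074% of 35116. The element and its flanks are given for 6 of these 7 genes, with the element in capitals, in the direction of transcription and 5′ to 3′. CALR, CRELD2 and the downstream match of HSP90B1 hold it on the opposite strand.
HSPA5 (chr9:125241376-125241424, minus strand): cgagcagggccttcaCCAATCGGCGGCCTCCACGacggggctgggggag
HSP90B1 (chr12:103930201-103930354, plus strand): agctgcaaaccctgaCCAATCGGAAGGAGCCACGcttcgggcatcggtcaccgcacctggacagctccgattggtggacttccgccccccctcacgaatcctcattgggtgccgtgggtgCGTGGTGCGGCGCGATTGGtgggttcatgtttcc
CALR (chr19:12938369-12938417, plus strand): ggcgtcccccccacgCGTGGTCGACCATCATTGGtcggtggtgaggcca
PDIA6 (chr2:10812838-10812886, minus strand): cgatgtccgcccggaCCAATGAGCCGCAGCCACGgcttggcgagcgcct
XBP1 (chr22:28800588-28800636, minus strand): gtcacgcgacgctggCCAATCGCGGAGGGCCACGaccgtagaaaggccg
CRELD2 (chr22:49918539-49918587, plus strand): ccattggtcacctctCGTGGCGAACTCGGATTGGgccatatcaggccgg

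A related element of the unfolded protein response, TGACGTGG, stood in 4 of the 36 genes (DNAJC10, HYOU1, SSR3 and SSR4; 11.1%, against 0.78% of all genes; by single promoters, 8.51% against 0.612%). The hypoxia response core, ACGTG or GCGTG, stood in 30 of the 36 (83.3%), against 47.4% of all genes, and in 83% of the members' single promoters, against 43.2% of all promoters. ACGTG is part of TGACGTGG, so these matches overlap. In CALR and HSP90B1, GCGTG matches share bases with the ER stress response element. The shares over all genes count every gene in the promoter table, whether or not it passed the filter on low counts. The core is shown in capitals for the 3 matched genes whose counts changed in a comparison below. In SEC61G, GCGTG is followed by CACGT, which is ACGTG on the opposite strand.
SEC61G (chr7:54759299-54759346, minus strand): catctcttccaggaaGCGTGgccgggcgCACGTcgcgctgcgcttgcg
EDEM1 (chr3:5187532-5187566, plus strand): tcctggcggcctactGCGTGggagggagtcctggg
CREB3L2 (chr7:138002212-138002246, minus strand): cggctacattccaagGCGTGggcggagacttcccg
These matches are letters in a window and carry no measurement of binding.

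The libraries held 13263168 to 20451433 counts each. HIF1A was at 120, 58.2 and 112 CPM (counts scaled to a common library total, with edgeR's TMM factors) with control siRNA, at 15 to 22.2 with HIF1A siRNA and at 24.2 to 32.2 in the double knockdown, so that 19.1% and 30.1% of the control level remained. EPAS1 fell from 138 to 171 CPM to 9.16 to 11.9 with HIF2A siRNA and 7.01 to 11.3 in the double knockdown, with 6.4% and 5.61% remaining. With HIF1A siRNA alone EPAS1 was at 101 to 134 CPM, below every control library, a log2 fold change of -0.47 that did not pass the test (quasi-likelihood test of edgeR, p-values adjusted by Benjamini-Hochberg over all genes tested, as throughout; adjusted p = 0.28). Of the marker lists, 8 renal epithelial genes summed to 927 to 1480 CPM, 4 endothelial genes to 0 to 0.432 and 4 immune genes to 33.1 to 65.5. Among the immune genes PTPRC and CD3E were at 0, LYZ at 0.268 to 2.16 CPM and CD68 at 32.6 to 65.1. Fibroblast and pericyte markers summed to 31.4 to 99.2 CPM. Of these, COL1A1 was at 16.6 to 71.1, ACTA2 at 7.26 to 14.7, RGS5 at 1.73 to 10.4, PDGFRB at 0.647 to 8.59 and DCN at 0 to 0.0636.

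The ER genes of control cells spanned a wide range of levels. Per kilobase of exon, CALR, the calcium-binding lectin calreticulin, was highest at 904 ± 97.4 CPM per kb (SD, n = 3). It was followed by HSPA5, which encodes BiP, the main chaperone of the ER lumen (165 ± 10.6), and PDIA4, a disulfide isomerase (163 ± 7.3), whose ranges over the libraries overlapped. HSP90B1, the lumenal HSP90 chaperone, stood at 145 ± 4.91 CPM per kb and CANX, the membrane-bound lectin calnexin, at 106 ± 14. At the low end were EIF2AK3, the gene of PERK (1.35 ± 0.524), DERL3, a derlin of the degradation channel (1.22 ± 0.412), and ERN1, the gene of IRE1 (0.0368 ± 0.0243). A total of 33 of the 39 genes lay above the median of 11695 tested genes with a known length, and 8 were in the top 5%. Of the 38 pairs of neighbors in this order, 33 had overlapping ranges in the control libraries and 5 did not. Of the 3 stress sensors, ATF6, the membrane-bound transcription factor, stood at 6.01 ± 1.62 CPM per kb, near the median gene (percentile 52.9), while EIF2AK3 and ERN1 were at percentiles 22.9 and 0.59. Every lectin and isomerase other than UGGT1, the folding sensor of glycoproteins (12.7 ± 5.2), had a mean of 65.7 CPM per kb or more. The lengths are the union of all annotated exons of a gene, so this order and the percentiles depend on that annotation. HSP90B1 has 13092 bases, HSPA5 6530 and EIF2AK3 20691. In CPM without length, HSP90B1 (1890) stood above HSPA5 (1080) and PDIA4 (538), and EIF2AK3 (27.9) above DNAJB9 (14.2). CALR (2530) and ERN1 (0.705) kept the ends of the order.

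**Figure D1:**
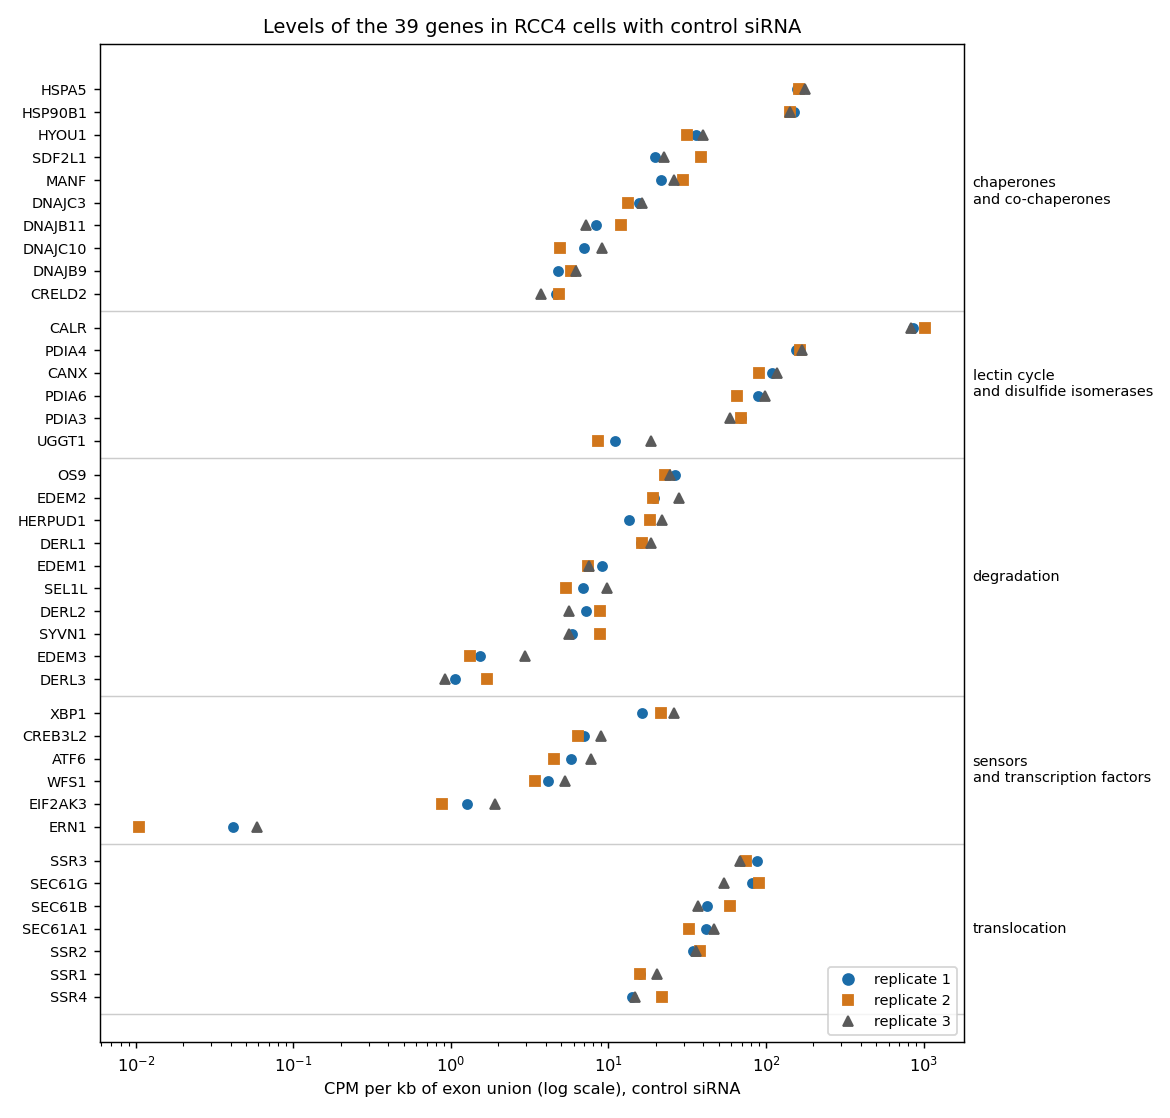
Levels of the 39 genes with control siRNA, in CPM per kb of exon on a log scale, with the genes grouped by role and each point a library (3 replicates). CALR is highest at a mean of 904 CPM per kb and ERN1 lowest at 0.0368.

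Few of the 39 genes passed the test after knockdown of either HIF. With HIF1A siRNA, 1 of 39 passed the test at an adjusted p of 0.05 (SEC61G, lower; 2.56%), where 1.39% of all genes were called. With HIF2A siRNA 0 of 39 passed, where 0.2% of all genes were called. Unadjusted p-values of edgeR's test were under 0.05 for 0 members and for 869 of all 13000 genes, and DESeq2 also called 0 members. In the double knockdown 4 of 39 passed (EDEM1, SEC61G and PDIA3 lower, CREB3L2 higher), which is 10.3%, and 10.3% of all genes were called. The members' share in the double knockdown was thus the share over all genes. The median log2 fold change of the 39 genes was -0.02, 0.02 and 0.02 in the 3 comparisons, and 0 over all genes in each. The median size of the change, regardless of direction, was 0.13, 0.09 and 0.2 for the members and 0.14, 0.13 and 0.23 for all genes. The libraries of a treatment lay all above or all below the controls for 5.13%, 2.56% and 12.8% of the members. Over all genes the shares were 7.1%, 5.31% and 15.6%, so such separation was not more frequent among the members. The 3 comparisons share the 3 control libraries.

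For most genes that were not called, the data bound the change. The 95% confidence interval lay within 1 on the log2 scale for 37 of 38 genes not called with HIF1A siRNA, 37 of 39 with HIF2A siRNA and 33 of 35 in the double knockdown. It lay within 0.5 for 25, 31 and 22 of them. The intervals that reached beyond 1 were those of ERN1 in all 3 comparisons, which had 4 to 42 counts per library, and of DERL3 with HIF2A siRNA and in the double knockdown.

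**Figure D2:**
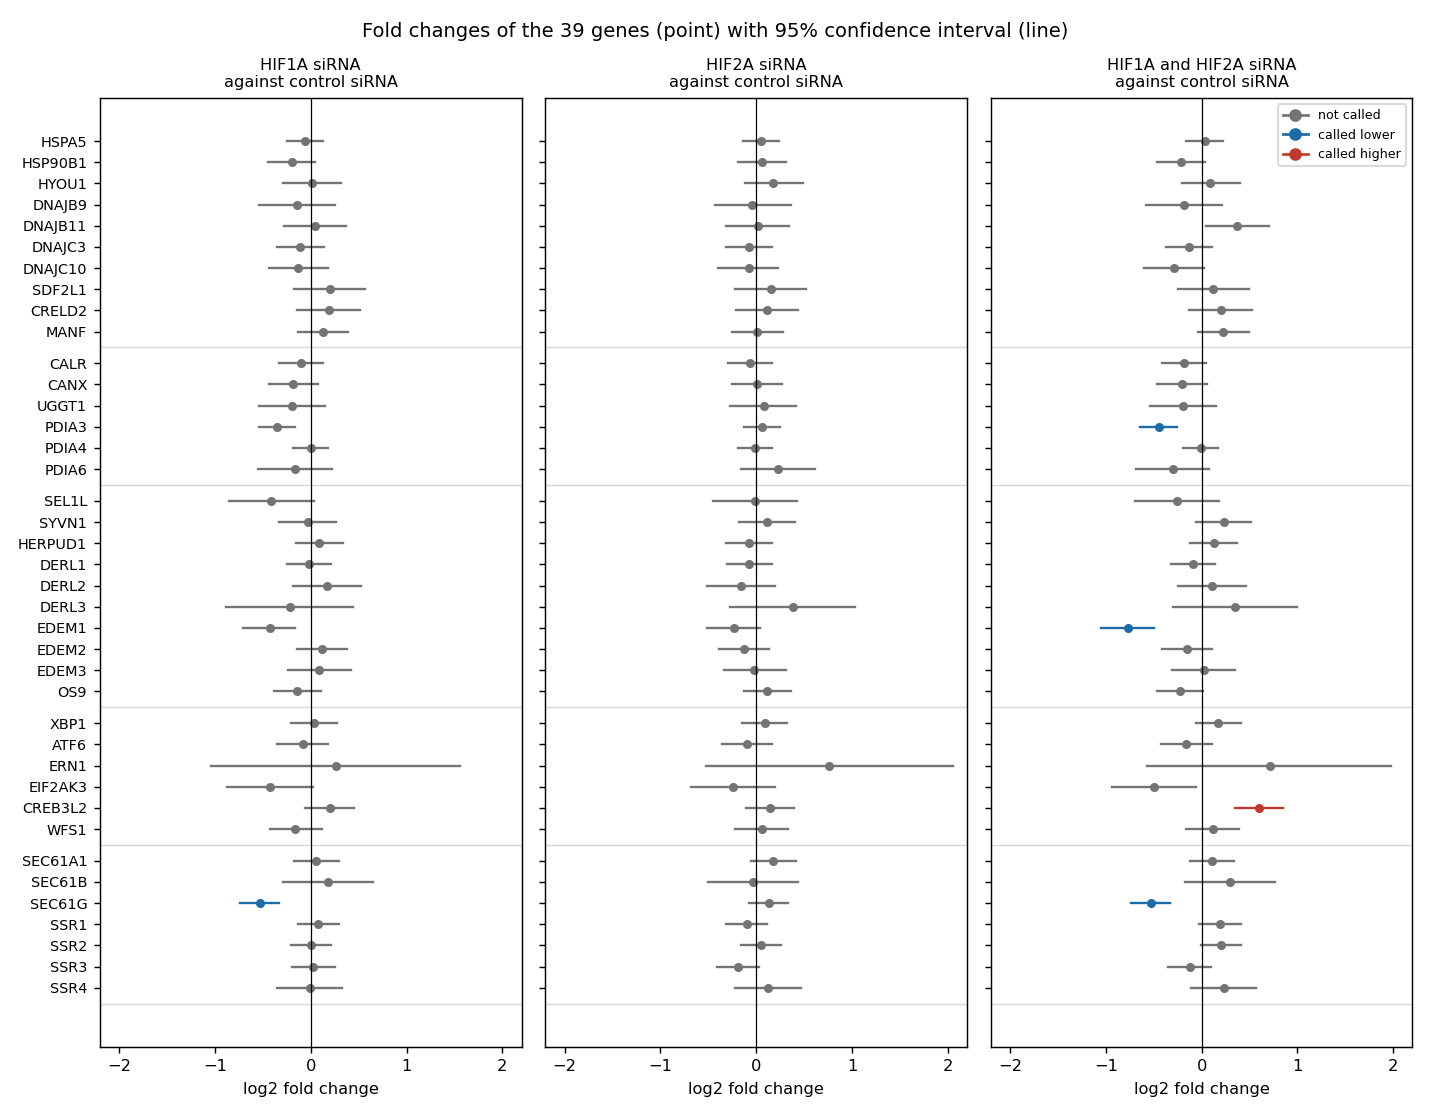
Log2 fold changes (points) of the 39 genes against control siRNA with 95% confidence intervals (lines), in 1 panel per siRNA treatment, grouped from top to bottom as chaperones, lectins and isomerases, degradation, sensors and translocation. SEC61G is called lower with HIF1A siRNA, and EDEM1, SEC61G and PDIA3 lower and CREB3L2 higher in the double knockdown; no gene is called with HIF2A siRNA.

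None of the 10 chaperones and co-chaperones passed the test in any of the 7 comparisons made. Between 0% and 10.3% of all genes were called in these comparisons, so 0 of 10 is not read as a trait of this role. The calls in the other roles below are of single genes and are not read that way either. HSPA5, the usual marker of the unfolded protein response, was at 1020, 1060 and 1150 CPM with control siRNA, 933, 1080 and 1100 with HIF1A siRNA, 972, 1190 and 1200 after HIF2A siRNA and 962, 1120 and 1240 in the double knockdown. The groups overlapped throughout. Its log2 fold changes against control were -0.06 (95% confidence interval -0.25 to 0.13), 0.05 (-0.14 to 0.24) and 0.03 (-0.16 to 0.22). HSP90B1 was at 1970, 1860 and 1850 CPM with control siRNA and at 1430, 1780 and 1710 in the double knockdown, where every library was below every control, but its log2 fold change of -0.22 did not pass (edgeR's test, adjusted p = 0.26). DNAJB11, a co-chaperone of BiP, had the highest value of the 10 in the double knockdown at 0.37, with an unadjusted p of 0.028 and an adjusted p of 0.14 in edgeR's test. SDF2L1, CRELD2 and MANF, lumenal proteins that rise with ER stress, had log2 fold changes of 0.2, 0.19 and 0.13 with HIF1A siRNA, and none passed.

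Among the lectins and isomerases, PDIA3 was the only gene called, and it fell in the double knockdown. PDIA3 (ERp57) forms disulfide bonds in glycoproteins held by calreticulin and calnexin. It was at 812, 816 and 691 CPM with control siRNA, 593, 674 and 550 with HIF1A siRNA, 819, 882 and 713 after HIF2A siRNA and 542, 622 and 536 in the double knockdown. Every library with HIF1A siRNA, alone or combined, lay below every control and every HIF2A siRNA library. In the double knockdown 73.4% of the control level was left, a log2 fold change of -0.45 (SE 0.09) with an adjusted p of 0.0049 by edgeR's test. With HIF1A siRNA alone the value was -0.35 (SE 0.09), lower in 3 of 3 pairs, and did not pass (adjusted p = 0.079 in edgeR's test), whereas DESeq2 called it (adjusted p = 0.0083). With HIF2A siRNA it was 0.06. PDIA3, HSPA5 and HSP90B1 have processed copies elsewhere in the genome, so their counts depend on how reads shared with the copies were removed. The other 5 genes of this role were not called: CALR, CANX, UGGT1 and PDIA6 had values between -0.18 and -0.3 in the double knockdown, and PDIA4 was at -0.01 (95% confidence interval up to 0.17).

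Of the 10 degradation genes, EDEM1 carried the only call, with the lowest log2 fold change of the 39 genes in the double knockdown. EDEM1 is a mannosidase-like protein that directs misfolded glycoproteins to degradation. It was at 61.2, 49.9 and 50.4 CPM with control siRNA, 34.9, 45.8 and 39.2 with HIF1A siRNA, 44.2, 45.1 and 48 after HIF2A siRNA and 31.6, 31.4 and 31.5 in the double knockdown. The libraries of each knockdown lay below all 3 controls, and those of the double knockdown below all 9 others. The log2 fold change was -0.77 (95% confidence interval -1.05 to -0.5) in the double knockdown, with 58.5% of the control level left and an adjusted p of 0.0014 by edgeR's test. With HIF1A siRNA it was -0.43 (SE 0.13, adjusted p = 0.17 in edgeR's test) and with HIF2A siRNA -0.23 (adjusted p = 0.77), and neither passed. The interaction of the siRNAs, the departure of the double knockdown from the sum of the single effects, was -0.11 (-0.5 to 0.28). HERPUD1, an ER membrane protein induced by stress, was at 68, 92.7 and 110 CPM with control siRNA, 85.8, 92.4 and 107 with HIF1A siRNA, 65.7, 85.3 and 106 after HIF2A siRNA and 86.9, 86 and 120 in the double knockdown. These groups overlapped, with log2 fold changes of 0.09, -0.07 and 0.13. SEL1L and SYVN1, which form the core ubiquitin ligase, had -0.41 and -0.03 with HIF1A siRNA and -0.26 and 0.23 in the double knockdown, and did not pass. OS9, a lectin that hands glycoproteins to that ligase, was at 180, 172 and 193 CPM in the double knockdown against 229, 198 and 215 with control siRNA. These 2 groups of OS9 did not overlap, as for 15.6% of all genes in this comparison. Its value of -0.23 did not pass (adjusted p = 0.22 in edgeR's test).

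Among the sensors and transcription factors, CREB3L2 was higher in the double knockdown. CREB3L2 is a membrane-bound transcription factor related to ATF6 that promotes secretory capacity. It was at 61.3, 56.1 and 78.9 CPM with control siRNA, 56.8, 69.9 and 103 with HIF1A siRNA, 56, 68.8 and 94.5 after HIF2A siRNA and 90.3, 85.6 and 122 in the double knockdown. The double knockdown lay above all controls and, within each replicate number, at 147 to 155% of its control. The log2 fold change was 0.6 (95% confidence interval 0.35 to 0.85; adjusted p = 0.0046 by edgeR's test). Under each single siRNA it was 0.2 and 0.14, which did not pass. XBP1, the transcription factor activated by IRE1, was at 49.6, 65.6 and 78.9 CPM with control siRNA, 49.4, 77.5 and 70.7 with HIF1A siRNA, 53, 76.8 and 75.4 after HIF2A siRNA and 56.7, 72.1 and 89.9 in the double knockdown. Its groups overlapped, and counts per gene do not tell spliced from unspliced XBP1. EIF2AK3 had -0.43, -0.24 and -0.5 in the 3 comparisons with control, with an unadjusted p of 0.03 in the double knockdown and an adjusted p of 0.15 in edgeR's test.

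In the translocation group SEC61G fell while the other 6 genes were not called. SEC61G is the smallest subunit of the Sec61 channel. It was at 149, 167 and 100 CPM with control siRNA, 105, 105 and 74.6 with HIF1A siRNA, 165, 172 and 114 after HIF2A siRNA and 98.3, 116 and 71.8 in the double knockdown. Replicate 3 was lowest in every group, so the groups overlap with control, whereas within replicate numbers HIF1A siRNA left 62.8 to 74.5% of control and the double knockdown 66.1 to 71.8%. The log2 fold change was -0.53 (SE 0.10) in both comparisons, with adjusted p-values of 0.0082 and 0.0026 by edgeR's test. With HIF2A siRNA it was 0.13 (95% confidence interval -0.08 to 0.33). Of the partner subunits, SEC61A1, the pore, had 0.06 and SEC61B 0.18 with HIF1A siRNA, and 0.11 and 0.3 in the double knockdown. SSR1 to SSR4, the translocon-associated complex, had -0.12 to 0.23 in the double knockdown.

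**Figure D3:**
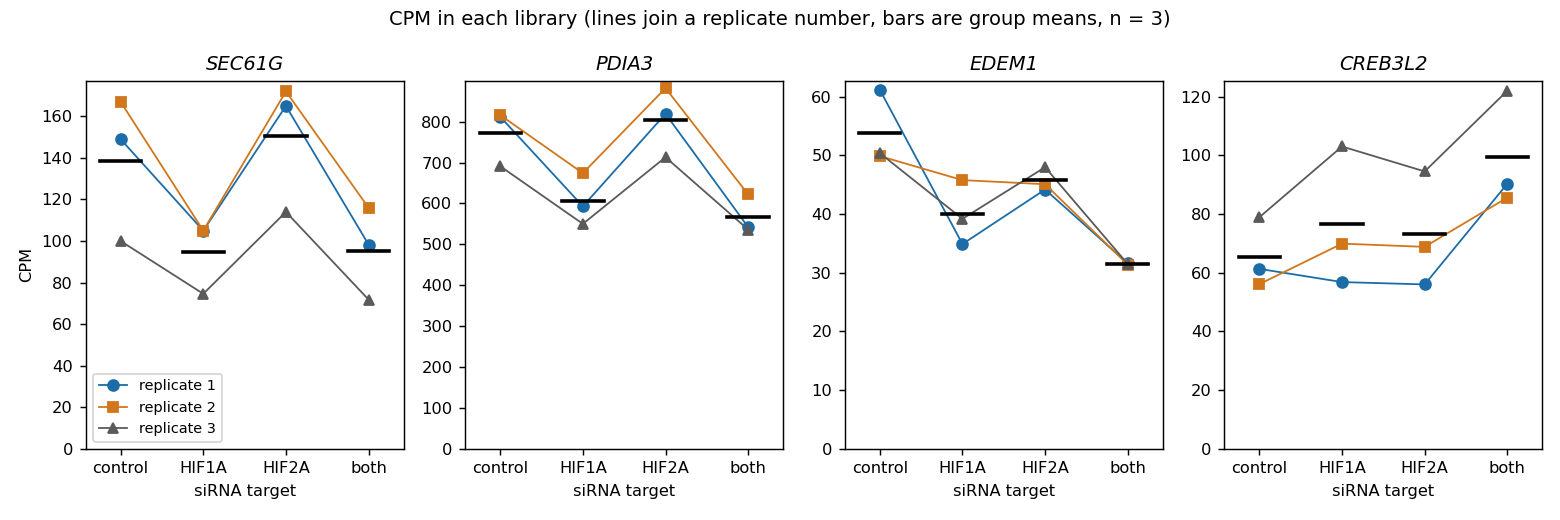
CPM of the 4 genes called in a comparison with control siRNA, in each of the 12 libraries; lines join libraries of the same replicate number and bars are group means (n = 3). SEC61G and PDIA3 are lower in both groups that received HIF1A siRNA, EDEM1 is lowest in the double knockdown (31.4 to 31.6 CPM) and CREB3L2 highest there (85.6 to 122 CPM).

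The calls for SEC61G, PDIA3 and CREB3L2 rest on the pairing by replicate number. Without the replicate block, the adjusted p of edgeR's test was 0.46, 0.19 and 0.41 in the double knockdown and 1 for SEC61G with HIF1A siRNA, while EDEM1 kept its call in the double knockdown (adjusted p = 0.024). The fold changes without the block were -0.54, -0.45, 0.6 and -0.77 in the double knockdown. Leaving out replicate 3, EDEM1 was at -0.82 with an adjusted p of 0.051 in edgeR's test. The calls of SEC61G, PDIA3 and CREB3L2 were lost in that fit as well. The share of all genes called there is not given here, and nothing is read from these losses about the ER genes as a group.

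The knockdowns were also compared with each other. Against HIF2A siRNA, the double knockdown had 4 of 39 genes called (10.3%, with 4% of all genes called), SEC61G (-0.66), PDIA3 (-0.5) and EDEM1 (-0.54) lower and CREB3L2 (0.46) higher, with adjusted p-values of 0.00084, 0.004, 0.03 and 0.044 in edgeR's test. HIF1A siRNA against HIF2A siRNA gave 2 of 39 (5.13%, with 1.92% of all genes called), SEC61G at -0.66 (adjusted p = 0.0012) and PDIA3 at -0.41 (adjusted p = 0.026 in edgeR's test). All of these calls between knockdowns were lost without the replicate block and without replicate 3. Of the alternatives run, the double knockdown against HIF2A siRNA kept CREB3L2 in 8 of 21, EDEM1 in 11, PDIA3 in 16 and SEC61G in 19, and HIF1A siRNA against HIF2A siRNA kept PDIA3 in 10 of 22 and SEC61G in 20. Against HIF1A siRNA, the double knockdown had 0 of 39 called, where 1.4% of all genes were called. Here 3 members and 1585 of all 13000 genes had an unadjusted p under 0.05 in edgeR's test, and DESeq2 called 0 members. CREB3L2 was at 0.4 (95% confidence interval 0.15 to 0.65) and EDEM1 at -0.34 (-0.62 to -0.06) in that comparison, and SEC61G at 0 (-0.21 to 0.21). The interaction was called for 0 of 39 members, and for 0% of all genes, by edgeR's test; 0 members and 318 of all genes had an unadjusted p under 0.05, and DESeq2 called 0 members. These comparisons reuse the same libraries and are not independent of those with control.

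Of the 7 genes with an ER stress response element, 0 were called in a comparison with control siRNA, and their median log2 fold changes were -0.10 with HIF1A siRNA (range -0.20 to 0.19), 0.06 with HIF2A siRNA (-0.06 to 0.23) and -0.18 in the double knockdown (-0.30 to 0.20). The 29 matched genes without the element had medians of 0.00, -0.01 and 0.09, with 1, 0 and 3 called. The shares called over all genes were 1.39%, 0.2% and 10.3%, and nothing is read from these small counts.

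A wider list of 71 other ER genes, of which 70 were tested, gave 1, 0 and 4 calls in the 3 comparisons with control siRNA. This is 1.43%, 0% and 5.71% of the list, where 1.39%, 0.2% and 10.3% of all genes were called. For HIF2A siRNA, 3 genes of the list and 869 of all 13000 genes were under an unadjusted p of 0.05 in edgeR's test. DESeq2 called 0 genes of the list there. ERO1L, the oxidase that recharges the disulfide isomerases, fell furthest in the list with HIF1A siRNA and in the double knockdown, from a mean of 94.3 CPM with control siRNA to 46.1 with HIF1A siRNA, 86.6 with HIF2A siRNA and 40.8 in the double knockdown. Its log2 fold changes were -1.04, -0.11 and -1.22, with adjusted p-values of 0.00062, 0.92 and 4.9e-05 in edgeR's test. P4HB, the founding disulfide isomerase and a subunit of collagen prolyl hydroxylase, had -0.32 with HIF1A siRNA (adjusted p = 0.15) and fell by 0.36 in the double knockdown (adjusted p = 0.022 in edgeR's test). VCP, the ATPase that extracts proteins from the ER membrane for degradation, rose by 0.58 in the double knockdown, and ERP29, a lumenal folding factor, by 0.36, with adjusted p-values of 0.0029 and 0.046 in edgeR's test. Without the replicate block 0 genes of this list passed with HIF1A siRNA or in the double knockdown. The share over all genes without the block is not given here, and nothing is read from this 0. ERO1L stayed at -1.03 and -1.21 without the block (adjusted p = 0.31 and 0.056 in edgeR's test). Over all alternatives run, its log2 fold change lay between -1.15 and -0.86 with HIF1A siRNA and between -1.3 and -1.09 in the double knockdown. Of 21 alternatives for the double knockdown, P4HB was called in 12, VCP in 18 and ERP29 in 5.

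More of the variation of the 39 genes followed the replicate number than the siRNA. For the median member, replicate number took 62.4% of the variance of log2 CPM, siRNA 14.6% and the remainder 20.3%, whereas the medians over all genes were 46.4%, 19.2% and 24.2%. Replicate number took the largest share in 31 of the 39 genes, against 7257 of all 13000 genes tested. The siRNA took it in 5 of the 39, against 2627 of the 13000. The 5 members were EDEM1 (87.1% siRNA), PDIA3 (78.1%), OS9 (63.5%), SSR2 (57.2%) and SEC61G (54.4%). In 13 genes all 4 libraries of replicate 3 were above the other 8, and in DNAJB11 they were all below, so that 35.9% of the members were split this way, against 27.3% of all genes. UGGT1 shows the pattern: it was at 210, 201, 200 and 190 CPM in replicate 3 and between 82.8 and 152 in the other libraries. The shift of replicate 3 from the others on the log2 scale was 1.17 for EIF2AK3, 1.08 for ERN1, 1.04 for EDEM3, a mannosidase of degradation, and 0.92 for SEL1L, while it was -0.57 for SEC61G and -0.93 for DERL3. Its Spearman correlation with exon length across genes was 0.57 for the 39 members and 0.404 for 11695 genes, and with GC content -0.289 and -0.29; these are descriptions across genes that share the same libraries, and the part of length or GC content in the shift was not tested.

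**Figure D4:**
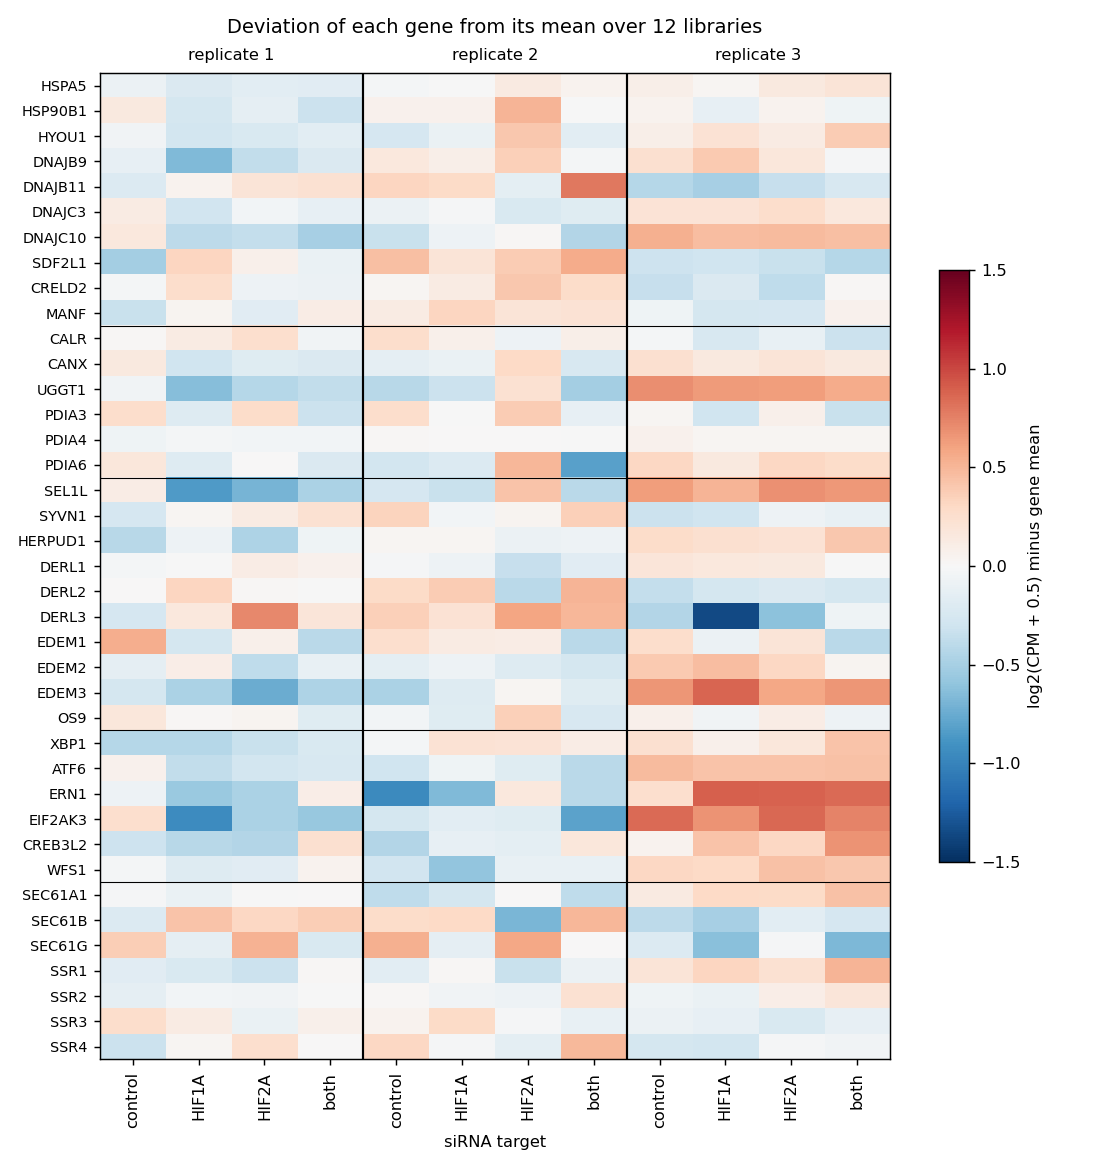
Deviation of log2(CPM + 0.5) from each gene's mean over the 12 libraries, with columns grouped by replicate number and ordered by siRNA target within it, and rows grouped by role. Replicate 3 stands above the other libraries for 13 genes, among them UGGT1, EDEM3 and EIF2AK3, and below them for DNAJB11.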

How the data were processed

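RNA from RCC4 cells was sequenced as polyA libraries prepared with a directional kit. The authors trimmed reads with Trim Galore (0.3.3), aligned them to hg19 with HISAT2 (2.05), removed fragments without a unique alignment with Picard (2.0.1), counted fragments per gene with HTSeq (0.5.4p3, intersection-strict) and deposited raw counts per gene symbol. Use of strand in counting is not given in the sources used here, so genes overlapping on opposite strands are uncertain. The study's methods pair conditions by biological replicate and leave the double knockdown unanalysed.

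From the deposited counts, all 12 libraries were fitted together with edgeR (4.0.16, R 4.3.3): TMM scaling (factors 0.98 to 1.02), the expression filter with a minimum count of 10, the replicate number as a block, the quasi-likelihood test and p-values adjusted by Benjamini-Hochberg over 13000 genes. A gene was called at an adjusted p under 0.05. Deviations from the group means correlated at 0.0991 to 0.813 across genes for same-numbered libraries and at -0.724 to 0.527 for different-numbered ones. Pairs within replicate 3 were at 0.724 to 0.813. Control siRNA replicate 2 was closer to HIF2A siRNA replicate 1 (0.527) than to HIF2A siRNA replicate 2 (0.231). Over the members the ranges were -0.000669 to 0.937 and -0.931 to 0.818. Deviations balance within a group, which by itself lowers the values for different numbers. The pairing comes from the study's methods. Labels do not say that replicates were separate cultures, so p-values measure the spread between these samples. Replicates differed by more than sampling noise. Exon lengths and GC content came from GENCODE v44 (hg38) by symbol, and promoter sequences from RefSeq, while the counts use hg19. The script was tested on simulated data.

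Genes named were the 39 members, with values per library for those called in any comparison, for HSPA5, XBP1 and HERPUD1, and for a few others; HIF1A and EPAS1; and the called genes of the wider list. The members and lists were chosen with earlier results of these data known. Alternatives were DESeq2 size factors, no expression filter, no block, DESeq2 (1.42.0), removal of a GC and length trend, fewer libraries in the fit, and leaving out each replicate number and library.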

Additional observations from a re-analysis of the deposited data

How the results depend on the processing

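No call of a named gene changed direction under any alternative run. The counts of calls in this section stand without the share over all genes under each alternative. They show which calls depend on a setting, and nothing is read from them about the ER genes as a group. With HIF2A siRNA, and for the interaction, 0 of the 39 genes were called under every alternative. EDEM1 was called in the double knockdown in 20 of 21 alternatives, CREB3L2 and SEC61G in 18 and PDIA3 in 17, and SEC61G with HIF1A siRNA in 15 of 22. Without the replicate block, the members called were 0 with HIF1A siRNA, 1 in the double knockdown (EDEM1), 0 for the double knockdown against HIF2A siRNA and 0 for HIF1A siRNA against HIF2A siRNA, and the wider list had 0 and 0 calls. DESeq2 called 2 members with HIF1A siRNA (PDIA3 and SEC61G), and 2 and 7 genes of the wider list with HIF1A siRNA and in the double knockdown. With a GC and length trend removed, the double knockdown against HIF1A siRNA had 1 member called (CREB3L2) and the wider list 9 in the double knockdown. With only the 6 compared libraries fitted, the members called were 0 with HIF1A siRNA, 8 in the double knockdown, 1 against HIF1A siRNA (CREB3L2) and 1 against HIF2A siRNA, and the wider list had 15. Without the double knockdown libraries, 1 member (SEC61G) was called for HIF1A siRNA against HIF2A siRNA.

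Leaving out a replicate number or library gave 0 to 3 members with HIF1A siRNA, 0 to 5 in the double knockdown, 0 to 4 for the double knockdown against HIF2A siRNA and 0 to 2 for HIF1A siRNA against HIF2A siRNA; the wider list had 1 to 2 and 1 to 12 calls. Without replicate 3, these 4 comparisons called 0 members. The call of SEC61G with HIF1A siRNA was lost without replicate 1, replicate 3, control siRNA replicate 2, HIF1A siRNA replicate 1 or HIF1A siRNA replicate 2, while its log2 fold change stayed between -0.59 and -0.47. With HIF1A siRNA, PDIA3 was called without replicate 2 or HIF2A siRNA replicate 2, and EDEM1 without replicate 2. In the double knockdown, 2 members were called without replicate 1 (CREB3L2, EDEM1) and 2 without double knockdown replicate 1 (EDEM1, SEC61G). Against HIF2A siRNA, the double knockdown kept SEC61G alone without replicate 1 or double knockdown replicate 1, and PDIA3 and SEC61G without HIF1A siRNA replicate 3, HIF2A siRNA replicate 1 or 3, or double knockdown replicate 2 or 3. For HIF1A siRNA against HIF2A siRNA, SEC61G alone was called without replicate 1, control siRNA replicate 3, any HIF1A siRNA library, HIF2A siRNA replicate 1 or 3, or double knockdown replicate 1 or 3. Each of these fits held fewer libraries, and the cause of the losses was not tested. In the wider list, ERO1L was called in 20 of 21 alternatives for the double knockdown, VCP in 18, P4HB in 12 and ERP29 in 5. The call of P4HB was lost with the GC and length trend removed and without any 1 of the double knockdown libraries. That list had 2 calls with HIF1A siRNA and 12 in the double knockdown without HIF2A siRNA replicate 2, 1 in the double knockdown without replicate 1 or 3, and 2 without control siRNA replicate 2 or 3 or any double knockdown library. The confidence intervals of ERN1 and DERL3 reached beyond 1 on the log2 scale; the cause of their width was not tested.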
